A study of Mus musculus with 6 samples.

Results

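Interferon-stimulated genes are the antiviral and immune genes that cells switch on when an interferon binds its receptor. A panel of 40 of them was chosen by symbol and followed in JNK-deficient mammary tumor cell lines (MEKO) and in cultured mammary epithelial cells (MEC). The expression table held 37755 entries, and each symbol was taken from the entry that carried it with the highest mean level. The 40 symbols came from 39 entries, because *Igtp* and *Irgm2* shared 1 joined entry whose value cannot be split between them. *Irf9* was joined with *Rnf31* in the same way. All 39 entries passed the filter on low values and were among the 12461 entries tested.

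Type I interferons signal through the IFNAR receptor and the kinases JAK1 and TYK2 to a complex that holds STAT2 and IRF9 and binds the interferon-stimulated response element (ISRE). Type II interferon signals through the IFNGR receptor to factors that bind the gamma-activated site (GAS). The induced proteins sense viral nucleic acid, block translation and viral assembly, attach the ubiquitin-like protein ISG15 to other proteins, or act as GTPases on the membranes around intracellular microbes, and several of them amplify the signal.

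RNA-seq of 6 libraries was compared, 3 of each kind, all from C57/Bl6J mice that carried the *Wap-Cre* transgene. MEC 1, 2 and 3 (genotype WAPCre+) were primary mammary epithelial cells from virgin females aged 10 to 12 weeks, with 3 to 5 females named for an isolation, grown on collagen I to near confluence and given no treatment. MEKO lines 199, 233 and 336 (Mapk8KO Mapk9KO Cre+) were untreated cell lines from mammary tumors, passed 2 times on collagen I and then kept on plain dishes until established; the age of their donors was not given in the labels. The *Wap* promoter drives Cre in luminal cells during pregnancy and lactation; the MEC donors were virgin and the tumors arose in parous mice. Per the study, females were bred at 10 to 12 weeks and watched for tumors after weaning, so the tumor donors were older. Loss of *Mapk8* and *Mapk9*, tumor origin, parity, donor age and time in culture changed together. Their parts in any difference cannot be told apart.

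The targeted genes were lower in every line. *Mapk8*, which encodes JNK1, stood at 23.1, 25.1 and 19.2 FPKM in MEC 1, 2 and 3 and at 5.93, 3.12 and 1.37 FPKM in lines 199, 233 and 336. *Mapk9*, which encodes JNK2, stood at 24.4, 21.5 and 22.1 FPKM in the MEC libraries and at 7.62, 3.15 and 3.07 FPKM in the lines. FPKM is the number of fragments scaled to the length of the transcript and to the fragments mapped in the library. Values summed to between 557991 and 638365 FPKM per library, with 17343 to 18741 entries above 0. All 8 epithelial markers examined had values above 0 in every library, though *Trp63* was at only 0.0633 FPKM in line 233. The markers summed to 5805 to 9612 FPKM in MEC and 1326 to 1971 FPKM in the lines. In the limma test used below, 4 were called lower (*Epcam*, *Cdh1*, *Krt8* and *Krt19*), against 7.26% of all tested entries. *Krt18* was below every MEC library in all 3 lines but missed that test (adjusted p = 0.0550). The basal keratins split the lines: *Krt5* was at 201 to 435 FPKM in MEC and at 608, 1.33 and 15.3 FPKM in lines 199, 233 and 336, and *Krt14* was at 289 to 460 FPKM in MEC and at 521, 7.36 and 24.0 FPKM in the lines.

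Across the panel, interferon-stimulated genes had lower values in MEKO than in MEC, few of them passed the test, and the 3 lines did not share one pattern. The log2 fold change was below 0 for all 39 entries over the 3 lines, with a median of -1.85 against 0.01 over all tested entries; *Oasl1*, at -0.02, turned above 0 after quantile normalization and with array weights, and *Trim25* with array weights. Only 6 entries passed the limma test (adjusted p under 0.05 and a log2 change beyond 0.75), all of them lower, against 7.26% of all tested entries called lower and 2.64% called higher. They were *Zbp1* (chr2:173206612-173218923, minus strand), *Ifit3* (chr19:34583531-34588731, plus strand), *Cmpk2* (chr12:26469204-26479837, plus strand), *Gbp2* (chr3:142620602-142638008, plus strand), *Gbp7* (chr3:142530342-142550149, plus strand) and *Mx1* (chr16:97447035-97462907, minus strand), with gene bounds from GENCODE M21 on GRCm38. *Mx1* passed the filter only through its MEC level, which leaves 5 without it. At an unadjusted p under 0.05 there were 22 of 39, against 28.2% of all tested entries.

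The lines differed in the share of members that lay below MEC. In line 199, 37 of 39 entries lay below the lowest MEC library, 1 lay within the MEC range (*Ifit2*) and 1 above it (*Irf1*), where 39.1% of all tested entries lay below and 40.2% above. In line 336 all 39 entries lay below the MEC range, against 37.4% of all tested entries. In line 233 only 17 lay below, 15 within and 7 above, against 37.9% below and 37.4% above over all tested entries.

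**Figure D1:**
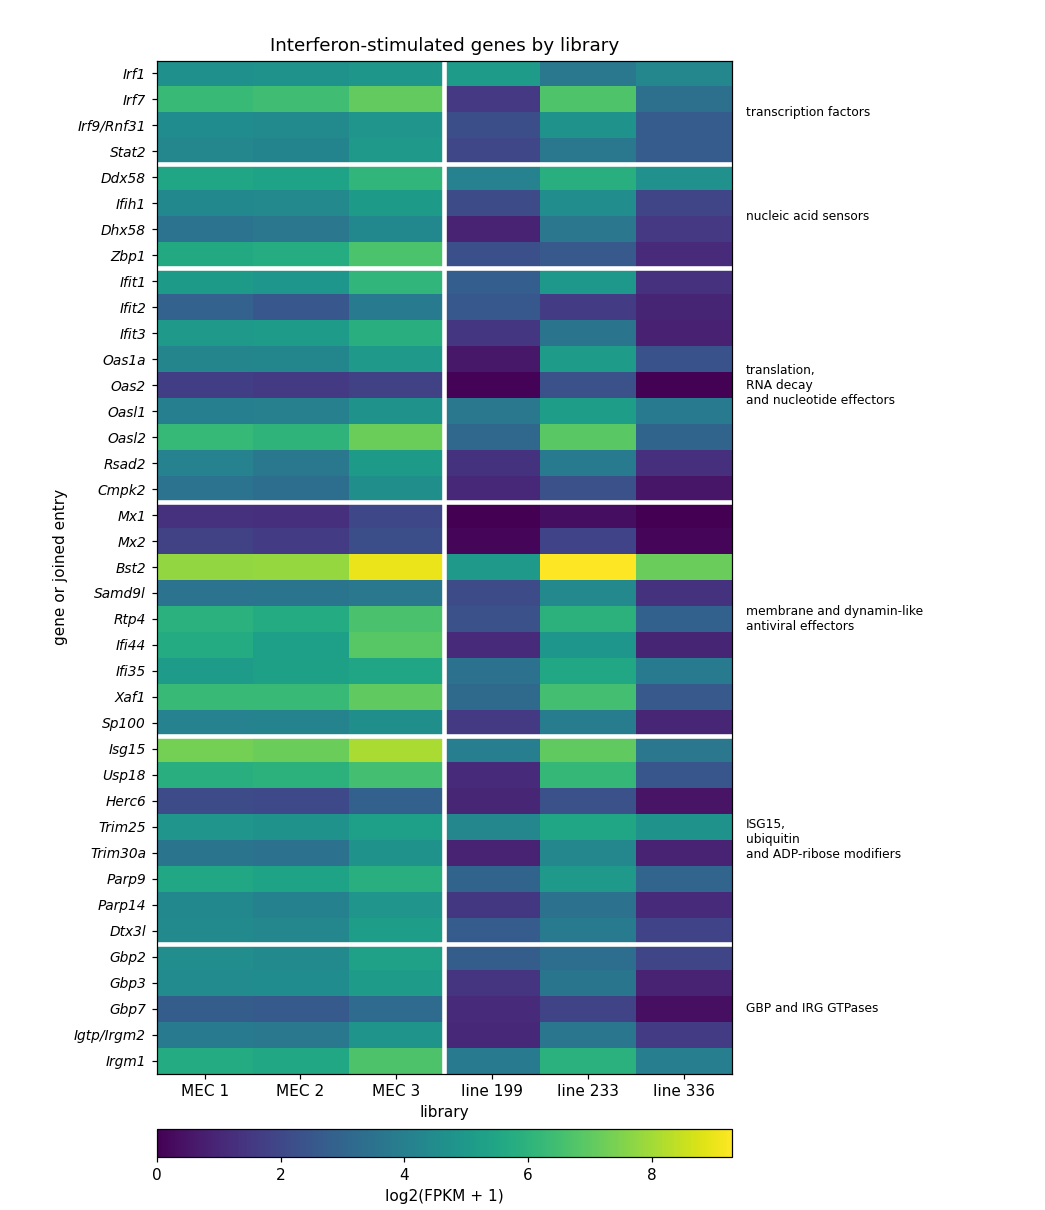
Level of each of the 39 entries, as log2(FPKM + 1), in the 3 MEC libraries and the 3 MEKO lines, grouped by the role of the protein. Lines 199 and 336 are darker (lower) than the MEC libraries in nearly every row, line 233 is close to MEC in most rows, and MEC 3 is the brightest MEC library in all 39.

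The start regions of the members carried the letters of the interferon motifs more often than other genes did. RefSeq promoter windows of GRCm38.p6, from 250 bases before to 50 bases after each transcript start, were at hand for 31 of the 40 symbols. *Zbp1*, *Mx1*, *Mx2*, *Parp9*, *Parp14*, *Rtp4*, *Dhx58*, *Oas2* and *Usp18* had no window, so motifs could not be looked for in them. An ISRE core, spelled GAAA, NN and GAAA in 1 run on either strand, was found in 16 of the 31 genes (51.6%), against 3.99% of the 27025 genes with a window. A GAS core, TTCNNNGAA on either strand, was found in 8 of the 31 (25.8%), against 9.55% of all genes. The motifs may overlap each other, and a match is a description of letters, not of binding. The 200 bases before the start are shown for 5 members because they hold the main arrangements seen: runs and pairs of ISRE cores, 1 core, both motifs, and GAS alone. They are written 5′ to 3′ on the strand of the gene, with ISRE and GAS core matches in capitals, for *Isg15* (chr4:156200819-156201018, minus strand), *Ifit3* (chr19:34583329-34583528, plus strand), *Gbp2* (chr3:142620463-142620662, plus strand), *Irgm2* (chr11:58214777-58214976, plus strand) and *Irf1* (chr11:53769814-53770013, plus strand).
Isg15: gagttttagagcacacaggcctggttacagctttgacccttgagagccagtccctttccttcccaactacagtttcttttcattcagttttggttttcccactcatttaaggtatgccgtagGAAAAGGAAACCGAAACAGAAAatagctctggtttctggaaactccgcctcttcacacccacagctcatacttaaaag
Ifit3: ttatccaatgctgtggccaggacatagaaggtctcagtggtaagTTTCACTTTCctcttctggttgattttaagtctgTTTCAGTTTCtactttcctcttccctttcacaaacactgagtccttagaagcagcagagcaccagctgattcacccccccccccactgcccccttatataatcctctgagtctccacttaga
Gbp2: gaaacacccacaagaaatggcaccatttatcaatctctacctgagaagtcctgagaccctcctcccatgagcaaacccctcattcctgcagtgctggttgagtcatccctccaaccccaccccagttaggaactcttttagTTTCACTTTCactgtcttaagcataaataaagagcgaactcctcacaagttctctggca
Irgm2: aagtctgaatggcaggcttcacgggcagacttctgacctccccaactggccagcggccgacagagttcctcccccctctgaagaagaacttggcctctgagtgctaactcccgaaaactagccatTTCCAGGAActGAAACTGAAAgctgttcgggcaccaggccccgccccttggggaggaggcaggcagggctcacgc
Irf1: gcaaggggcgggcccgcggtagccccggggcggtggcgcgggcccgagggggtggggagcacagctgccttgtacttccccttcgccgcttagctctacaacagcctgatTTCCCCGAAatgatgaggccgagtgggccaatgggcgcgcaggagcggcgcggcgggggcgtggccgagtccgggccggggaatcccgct

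*Isg15* carried 3 overlapping ISRE cores within the capitals, *Ifit3* carried 2 on the opposite strand, and *Gbp2* carried 1 on the opposite strand. *Irgm2* had a GAS core just ahead of its ISRE core, and *Irf1* had a GAS core alone. *Bst2*, *Gbp7*, *Igtp* and *Oas1a* likewise held both motifs, whereas *Ifit2* and *Ifi35* held a GAS core and no ISRE core in the window.

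**Figure D2:**
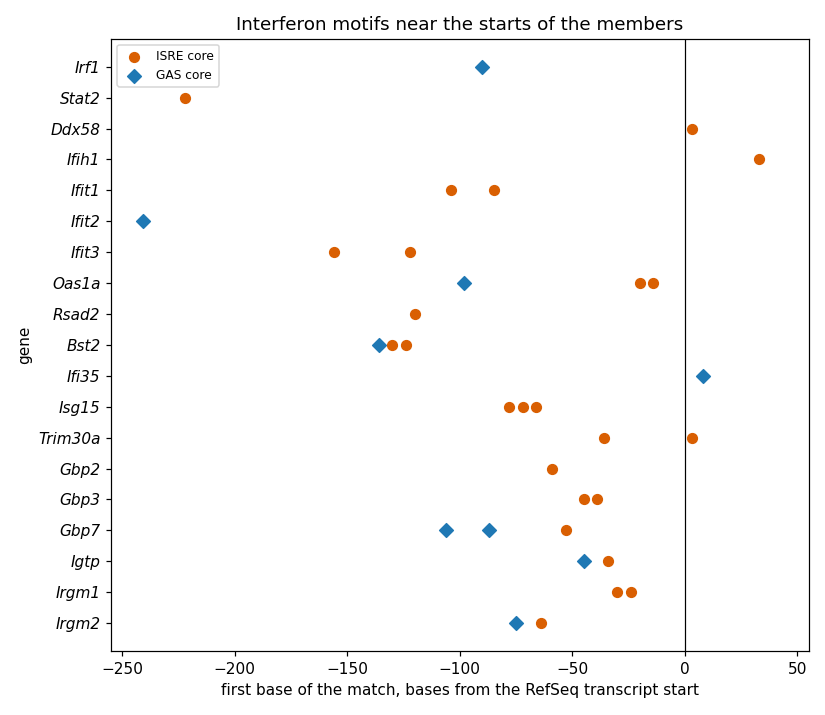
Position of each ISRE core (circles) and GAS core (diamonds) in the promoter windows of the members that had a match, in bases from the RefSeq transcript start, where negative values lie upstream. ISRE cores of *Isg15*, *Gbp3*, *Irgm1* and *Oas1a* sit within 80 bases upstream of the start, and those of *Ifit3* lie farther upstream.

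Among the transcription factors of the response, *Irf7*, *Irf9* and *Stat2* were low in lines 199 and 336, and none of the 4 factors passed the test over the 3 lines. *Irf7*, which encodes the factor that amplifies type I interferon production, stood at 76.6, 85.8 and 131 FPKM in MEC 1, 2 and 3 and at 1.94, 104 and 9.73 FPKM in lines 199, 233 and 336. The values of lines 199 and 336 were far under every MEC library and that of line 233 was within the MEC range. Its log2 fold change over the 3 lines was -2.69 ± 1.21 (SE), with an adjusted p of 0.207. *Stat2*, which encodes a subunit of the ISRE-binding complex, stood at 18.7, 17.3 and 31.0 FPKM in MEC and at 2.90, 12.1 and 5.52 FPKM in the lines. All 3 lines were below all 3 MEC libraries (-1.71 ± 0.46, adjusted p = 0.0684). The entry of *Irf9*, the DNA-binding partner in the same complex, stood at 22.1, 20.8 and 27.6 FPKM in MEC and at 3.69, 25.3 and 5.57 FPKM in the lines (-1.38 ± 0.62, adjusted p = 0.206). *Irf1*, a factor induced strongly through GAS elements, followed another order. It stood at 24.4, 25.8 and 29.5 FPKM in MEC and at 33.5, 12.2 and 18.9 FPKM in the lines, so that line 199 was the highest library of all and line 233 the lowest.

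Among the nucleic acid sensors, *Zbp1* fell in every line, and it was the member with the largest change. *Zbp1*, which encodes a sensor of Z-form nucleic acids that can trigger necroptosis, stood at 48.3, 52.2 and 99.0 FPKM in MEC 1, 2 and 3 and at 3.77, 4.97 and 1.20 FPKM in lines 199, 233 and 336. Each line was at under 10% of the MEC mean (5.67%, 7.48% and 1.81%), and *Zbp1* was the only member this low in line 233. Its log2 fold change was -4.01 ± 0.45 with an adjusted p of 0.00484, the lowest of the panel. The RIG-I-like receptors, which sense cytoplasmic viral RNA, instead followed the split between lines. *Dhx58* (LGP2) stood at 10.7, 11.8 and 19.1 FPKM in MEC and at 0.852, 12.0 and 1.89 FPKM in the lines (-1.81 ± 0.71, adjusted p = 0.161). *Ifih1* (MDA5) stood at 19.3, 19.6 and 32.6 FPKM in MEC and at 3.51, 22.5 and 2.84 FPKM in the lines (-1.70 ± 0.70, adjusted p = 0.174). For both, line 233 was inside the MEC range and the other 2 lines were far below it. *Ddx58* (RIG-I) was less low, at 42.9, 40.4 and 68.2 FPKM in MEC and 16.3, 56.8 and 24.9 FPKM in the lines (-0.76 ± 0.46, adjusted p = 0.325).

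Of the 9 effectors that act on translation, RNA or nucleotides, *Ifit3* and *Cmpk2* fell, against 7.26% of all tested entries called lower, and the other 7 did not pass the test. *Ifit3*, of the family that binds viral RNA at the ribosome, stood at 31.9, 33.9 and 55.6 FPKM in MEC and at 1.76, 10.9 and 0.820 FPKM in lines 199, 233 and 336. Every line was below every MEC library, line 233 by the smallest margin (-3.36 ± 0.69, adjusted p = 0.0325). Of the 75-base words in its transcripts, 41.1% also occur in *Ifit3b*, so reads could have been split between the 2 genes. *Cmpk2*, a mitochondrial nucleotide kinase, stood at 10.6, 9.17 and 23.8 FPKM in MEC and at 1.06, 3.93 and 0.468 FPKM in the lines (-2.54 ± 0.54, adjusted p = 0.0356). Its neighbour *Rsad2*, which encodes viperin and starts 12752 bases away on chromosome 12 on the opposite strand, stood at 16.4, 12.2 and 32.1 FPKM in MEC and at 1.59, 13.5 and 1.41 FPKM in the lines (-2.13 ± 0.75, adjusted p = 0.128). In line 233, *Rsad2* was therefore within the MEC range at 66.7% of the MEC mean while *Cmpk2* was below the range at 27.1%.

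The 3 *Ifit* genes of chromosome 19 also differed from each other in line 233. *Ifit1* stood at 32.3, 28.2 and 68.3 FPKM in MEC and at 5.77, 29.7 and 1.499 FPKM in the lines (-2.34 ± 0.89, adjusted p = 0.153). *Ifit2* stood at 6.51, 4.71 and 13.1 FPKM in MEC and at 4.95, 2.05 and 0.957 FPKM in the lines. Line 233 thus had *Ifit1* within the MEC range and *Ifit2* and *Ifit3* below it, whereas line 199 had *Ifit2* within it. The oligoadenylate synthetase family of chromosome 5 is named for enzymes that switch on the RNA-degrading RNase L. Of its genes in the panel, 3 had more RNA in line 233 than in any MEC library. Outside the panel, *Oas3* and *Oas1g* were also above the MEC range in line 233, and *Oas1b* and *Oas1c* were within it. *Oasl2* stood at 73.4, 65.2 and 146 FPKM in MEC and at 7.64, 119 and 6.96 FPKM in the lines (-2.15 ± 1.06, adjusted p = 0.240). *Oas1a*, *Oas2* and *Oasl1* were above all MEC libraries in line 233, at 152%, 175% and 187% of the MEC mean. *Oas1a* shares 47.6% of its 75-base words with *Oas1g*, so its level is uncertain. In lines 199 and 336, *Oas2* was at 2.52% and 2.02% of the MEC mean, but *Oasl1* was still at 64.9% and 71.0%.

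Of the 9 membrane and dynamin-like effectors, 1 was called, *Mx1*, against 7.26% of all tested entries called lower. *Mx1*, a GTPase that blocks influenza viruses and is defective in C57BL/6 mice, was the least abundant member in the lines, at 1.51, 1.46 and 3.00 FPKM in MEC and 0.0130, 0.269 and 0.0239 FPKM in lines 199, 233 and 336 (-1.41 ± 0.30 on the scale with 1 FPKM added, adjusted p = 0.0351). Its mean was 1.99 FPKM in MEC and 0.102 FPKM in the lines, so that it reached the filter of 1 FPKM through the group in which it was high, and it was not tested in the fits without 1 MEC library. The scale with 1 FPKM added compresses low values, since the lines were at 0.651%, 13.5% and 1.20% of the MEC mean. *Mx2*, its paralog beside it on chromosome 16, was at 4.49%, 94.6% and 3.30%, so that line 233 was below the MEC range for *Mx1* and within it for *Mx2*. *Ifi44* had the largest change that missed the test, from 51.1, 36.8 and 117 FPKM in MEC to 1.23, 28.3 and 0.938 FPKM in the lines (-3.61 ± 1.09, adjusted p = 0.0894). All 3 lines were below all MEC libraries, and line 233 was nearest to MEC 2. *Xaf1*, which encodes a partner of the apoptosis inhibitor XIAP, stood at 76.4, 74.6 and 127 FPKM in MEC and at 8.27, 90.5 and 5.08 FPKM in the lines (-2.39 ± 0.99, adjusted p = 0.175). *Rtp4* stood at 60.1, 51.2 and 97.4 FPKM in MEC and at 3.94, 61.0 and 6.34 FPKM in the lines (-2.38 ± 0.93, adjusted p = 0.160). *Bst2*, which encodes tetherin, the protein that holds budding virions at the cell surface, was the most abundant member. It stood at 219.7, 222 and 511 FPKM in MEC and at 31.5, 622 and 141 FPKM in the lines, so line 233 was the highest library and line 199 the lowest. *Samd9l* and *Ifi35* were also above the MEC range in line 233, at 174% and 122% of the MEC mean. *Sp100*, a component of nuclear bodies, was below the MEC range in all lines, at 10.5%, 76.0% and 5.39% of the MEC mean.

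None of the 8 genes of the ISG15, ubiquitin and ADP-ribose group passed the test over the 3 lines, and 4 of them had all lines below all MEC libraries, against 18.7% of all tested entries. *Isg15* stood at 163, 145 and 272 FPKM in MEC 1, 2 and 3 and at 14.7, 129.8 and 11.8 FPKM in lines 199, 233 and 336 (-2.65 ± 0.88, adjusted p = 0.113). *Usp18*, which encodes the protease that removes ISG15 and restrains the receptor, stood at 54.8, 61.3 and 90.8 FPKM in MEC and at 1.20, 72.0 and 4.66 FPKM in the lines (-2.82 ± 1.21, adjusted p = 0.191). Line 233 was just under the MEC range for *Isg15* and inside it for *Usp18*, while lines 199 and 336 were at under 10% of the MEC mean for both. *Parp14*, an ADP-ribosyltransferase, stood at 19.2, 15.9 and 27.3 FPKM in MEC and at 1.81, 10.1 and 1.18 FPKM in the lines (-2.39 ± 0.62, adjusted p = 0.0594). *Parp9* and *Dtx3l*, whose products form a complex, start 681 bases apart on opposite strands of chromosome 16 and overlap in their exons, and with no strand setting stated their reads may be mixed. For *Parp9* the lines were at 14.8%, 65.2% and 15.1% of the MEC mean, and for *Dtx3l* at 22.4%, 52.0% and 10.7%. *Trim25*, the ubiquitin ligase for RIG-I, was nearer to MEC, at 61.3%, 141% and 85.9% of the MEC mean in lines 199, 233 and 336. *Trim30a*, another member of the TRIM family, was at 5.53%, 122% and 5.47%, and *Herc6*, the mouse ligase for ISG15, at 23.2%, 92.3% and 9.45%.

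Among the GTPases that act on pathogen vacuoles, which respond strongly to type II interferon, *Gbp2* and *Gbp7* fell, against 7.26% of all tested entries called lower, and 4 of the 5 entries had all lines below all MEC libraries, against 18.7%. *Gbp2* stood at 22.2, 20.0 and 39.2 FPKM in MEC and at 5.66, 9.10 and 2.85 FPKM in the lines (-2.08 ± 0.41, adjusted p = 0.0296). *Gbp7* stood at 5.70, 5.13 and 8.46 FPKM in MEC and at 1.15, 2.77 and 0.305 FPKM in the lines (-1.73 ± 0.42, adjusted p = 0.0494). *Gbp3*, in the same cluster of chromosome 3, stood at 21.4, 21.8 and 33.4 FPKM in MEC and at 1.66, 11.3 and 0.911 FPKM in the lines (-2.71 ± 0.69, adjusted p = 0.0572). Within this group, line 233 was lowest relative to MEC for the *Gbp* genes, at 33.5%, 43.1% and 44.4% of the MEC mean for *Gbp2*, *Gbp7* and *Gbp3*. The joined entry of the immunity-related GTPases *Igtp* and *Irgm2* stood at 13.5, 12.1 and 26.8 FPKM in MEC and at 1.05, 11.5 and 2.03 FPKM in the lines (-2.03 ± 0.69, adjusted p = 0.120). *Irgm1* stood at 51.1, 46.4 and 102 FPKM in MEC and at 13.2, 60.3 and 14.8 FPKM in the lines (-1.40 ± 0.62, adjusted p = 0.199), with line 233 inside the MEC range. *Gbp7*, *Rtp4* and *Herc6* share 10.2%, 12.4% and 22.4% of their 75-base words with the overlapping genes *Gm43802*, *Gm45338* and *Gm45193*, and *Ifi35* overlaps *Gm11626* on the opposite strand over 16.8% of its exons, so part of their reads may belong to those genes.

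Over the panel, 15 of 39 entries had all 3 lines below all 3 MEC libraries, against 18.7% of all tested entries, and none had them above. For these 15 the exact two-sided permutation test over libraries gave p = 0.1, which is the smallest value that 3 against 3 allows. Besides the 6 that passed limma's test they were *Stat2*, *Ifi44*, *Sp100*, *Isg15*, *Parp9*, *Parp14*, *Dtx3l*, *Gbp3* and the *Igtp*/*Irgm2* entry.

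In each line on its own, the median log2 ratio of the members to the MEC mean was -2.70 for line 199, -0.20 for 233 and -2.61 for 336. The members were at a median of 8.92%, 86.2% and 9.45% of the MEC mean in that order. In lines 199 and 336, 21 entries each were at under 10% of the MEC mean, against 1 in line 233. Line 233 was the highest of the 3 lines for 37 of 39 entries, against 27.9% of all tested entries, and the exceptions were *Irf1* and *Ifit2*, which were highest in line 199. For 22 entries lines 199 and 336 were below the MEC range while line 233 was not, a pattern that 4.89% of all tested entries had. The 7 entries above the MEC range in line 233 were *Bst2*, *Oasl1*, *Oas2*, *Samd9l*, *Oas1a*, *Trim25* and *Ifi35*. The lowest in line 233, relative to MEC, were *Zbp1* (7.48%), *Mx1* (13.5%), *Ifit2* (25.3%), *Ifit3* (27.0%) and *Cmpk2* (27.1%). Each line came from its own tumor and was sequenced as 1 library, so these are differences between libraries with no replicate of a line.

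**Figure D3:**
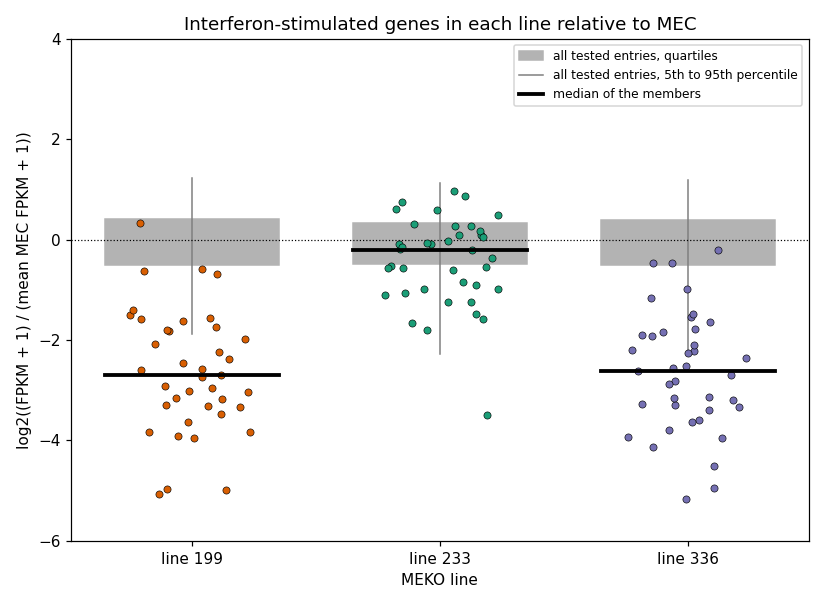
Log2 ratio of each MEKO line to the MEC mean, with 1 FPKM added to both, for the 39 entries (points, spread sideways for legibility) beside the quartiles and the 5th to 95th percentile of the 12461 tested entries (grey). The members' medians are -2.70, -0.20 and -2.61, and only line 233 has its median within the grey box.

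With line 233 left out, limma called 31 of 39 entries lower and none higher, against 6.27% of all tested entries called lower and 1.99% called higher in that fit. The median log2 fold change was then -2.57. Some of the called entries were low in lines 199 and 336 and reached the filter of 1 FPKM through their MEC levels. They were *Oas2* (0.0570 and 0.0456 FPKM), *Mx2* (0.124 and 0.0913), *Trim30a* (0.851 and 0.841), *Cmpk2* (1.06 and 0.468) and *Gbp7* (1.15 and 0.305). Of the 6 entries called with 3 lines, 5 were called again and *Mx1* was not (adjusted p = 0.0549), and 26 were called that had not been before. The largest changes then included *Ifi44* at -4.89, *Zbp1* at -4.30, *Usp18* at -4.28, *Ifit3* at -4.16 and *Irf7* at -4.10. The 8 entries not called were *Irf1*, *Ddx58*, *Ifit2*, *Oasl1*, *Mx1*, *Bst2*, *Herc6* and *Trim25*. Line 233 was left out because its values stood apart, so this count describes 2 lines and is no separate test. Leaving out MEC 1, MEC 2, MEC 3 or line 336 left only *Zbp1* called, against 1.70%, 1.98%, 3.13% and 5.68% of all tested entries called lower, and leaving out line 199 left 4 calls, against 11.2%. When limma weighted libraries by their quality, 11 entries were called lower and none higher, against 11.1% and 4.82% of all tested entries.

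**Figure D4:**
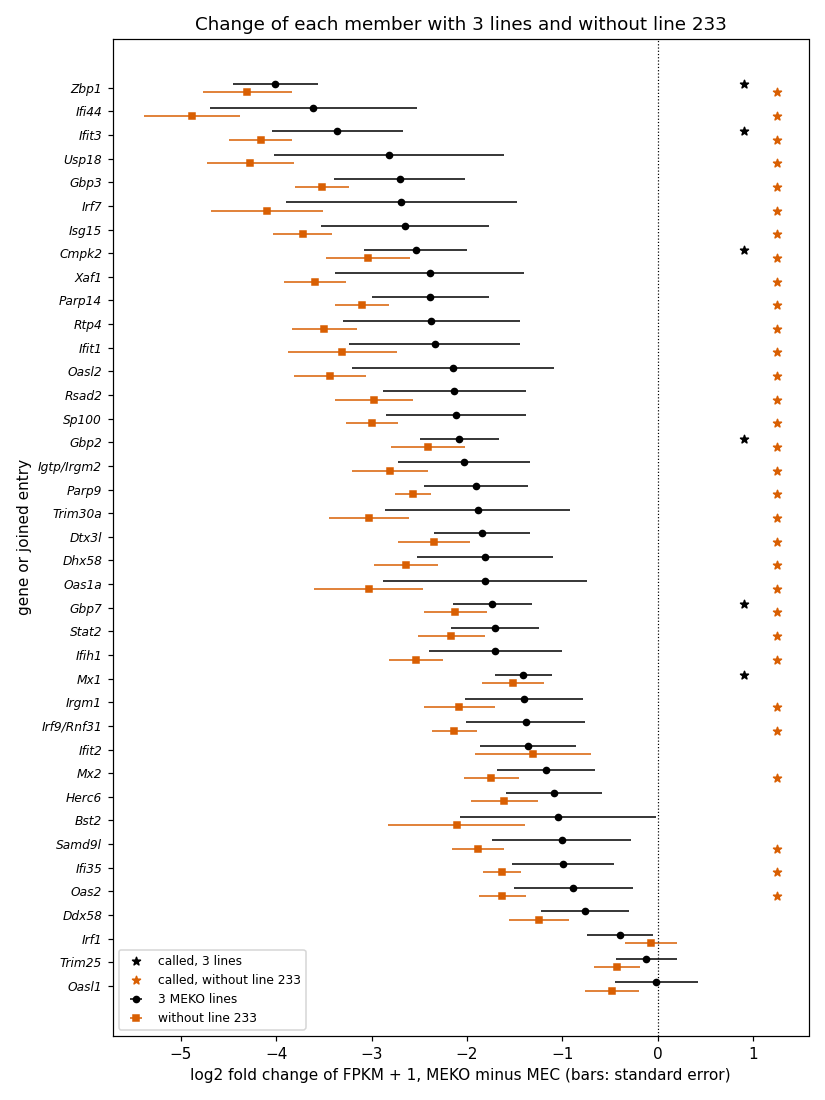
Log2 fold change of each entry (MEKO minus MEC, on FPKM + 1) with its standard error, from the 3 lines (black circles) and without line 233 (orange squares); stars mark the entries that passed the test in each fit. Without line 233 most values move further below 0 and their bars shorten, and the starred entries go from 6 to 31.

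The MEC libraries also differed among themselves. MEC 3 was the highest MEC library for 39 of 39 entries, against 45.7% of all tested entries, with a median log2 ratio of 0.74 to the other MEC libraries. It was the highest of all 6 libraries for 31 entries, line 233 for 7 and line 199 for 1. The summed FPKM of the members was 1399, 1343 and 2535 in MEC 1, 2 and 3 and 236, 1804 and 345 in lines 199, 233 and 336. By this sum line 233 exceeded 2 of the 3 MEC libraries, with *Bst2* alone at 622 FPKM there. By the median level of the members, line 233 was below every MEC library. That median was 21.4, 20.0 and 32.6 FPKM in MEC 1, 2 and 3 and 18.8 FPKM in line 233.

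Markers of leukocytes, which also express many interferon-stimulated genes, moved with part of this pattern. In bulk RNA, fewer cells of a type and less RNA per cell cannot be told apart. The 13 leukocyte markers found summed to between 28.9 and 54.8 FPKM in MEC, highest in MEC 3, and to 2.66, 3.32 and 25.2 FPKM in lines 199, 233 and 336, where *Cd68* made up 23.5 FPKM of the sum in line 336. *Lyz2*, the macrophage lysozyme, was at 16.5, 19.6 and 32.9 FPKM in MEC and at 0.0159, 0 and 0.0182 FPKM in the lines, and *Tyrobp* and *Cd52* were at 0 in all 3 lines. Of 5 leukocyte markers tested 3 were called lower, *Lyz2*, *Tyrobp* and *Laptm5*, against 7.26% of all tested entries. *Ptprc*, *Itgam*, *Laptm5*, *Coro1a* and *Csf1r* were below every MEC library in all 3 lines. In line 233 *Lyz2*, *Tyrobp* and *Cd52* were at 0, and *Csf1r* was at 0.333 FPKM. *Cd68*, at 2.73 FPKM and below the MEC range, made up most of the 3.32 FPKM summed in that line. *Flt3* was above the MEC range in all 3 lines, at 1.24, 0.121 and 0.0661 FPKM. In line 233 the members were at a median of 86.2% of the MEC mean. Stromal and endothelial markers split the libraries in another way: the 12 examined summed to between 120.0 and 226 FPKM in MEC, lowest in MEC 3, and to 1111, 2.58 and 6.24 FPKM in lines 199, 233 and 336. *Col1a1*, a fibroblast collagen, was at 54.2, 74.7 and 44.2 FPKM in MEC and at 600, 1.08 and 0.566 FPKM in the lines, and the endothelial genes *Pecam1* and *Cdh5* were low in MEC 3 (0.784 and 0.586 FPKM) and in all lines. The part of leukocyte, stromal or endothelial RNA in the members' levels was not tested.

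The interferon genes themselves were hardly detected. Of 21 ligand genes 19 were in the table, none reached the level required for testing, and the highest was *Ifnk*, an interferon of keratinocytes, at 0.711 FPKM in line 336 and 0 in the other libraries. All 5 receptor entries were present in every library and none passed the test. *Ifnar1*, a chain of the type I receptor, stood at 16.2, 16.5 and 18.5 FPKM in MEC and at 17.8, 14.4 and 17.1 FPKM in the lines. *Ifnar2*, the other chain, was joined in 1 entry with *Il10rb* and *Gm21970*, at 14.7, 14.8 and 18.9 FPKM in MEC and 19.3, 12.0 and 16.1 FPKM in the lines. The chains of the type II receptor had log2 fold changes of -0.43 ± 0.29 (*Ifngr1*, adjusted p = 0.364) and -1.02 ± 0.36 (*Ifngr2*, adjusted p = 0.125). *Ifnlr1*, of the type III receptor, was at -0.62 ± 0.33 (adjusted p = 0.268). Line 233, the line with the highest members, was below the MEC range for all 5 receptor entries, against 37.9% of all tested entries.

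Of the kinases of the pathway, *Jak1* stood at 43.5, 41.6 and 46.9 FPKM in MEC and at 31.0, 26.7 and 32.0 FPKM in the lines (-0.54 ± 0.14, adjusted p = 0.0594). The log2 fold change was -0.44 ± 0.28 for *Tyk2* (adjusted p = 0.344) and -0.19 ± 0.23 for *Irf3*, the factor upstream of interferon production (adjusted p = 0.605). Of 15 tested genes of nucleic acid sensing none passed the test. *Tmem173* (STING) was at 24.3, 19.9 and 25.7 FPKM in MEC and 4.85, 13.97 and 13.4 FPKM in the lines (-1.16 ± 0.38, adjusted p = 0.112). *Mavs*, the adaptor of the RIG-I-like receptors, was at 0.25 ± 0.18 (adjusted p = 0.417) and *Mb21d1* (cGAS) at -0.32 ± 0.41 (adjusted p = 0.646).

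Among other interferon-stimulated genes outside the panel, line 233 was again the line nearest to MEC. Of 54 tested entries 5 fell, *Phf11d* (-3.88), *Iigp1* (-2.37), *Lgals9* (-1.82), *Trim14* (-1.37) and *Znfx1* (-1.31), with adjusted p between 0.0229 and 0.0494. A single entry rose, *Pnpt1*, which encodes the mitochondrial polynucleotide phosphorylase (1.52 ± 0.36, adjusted p = 0.0476). These counts were near the shares of all tested entries, 7.26% called lower and 2.64% called higher. Lines 199, 233 and 336 had 46, 22 and 48 of the 54 entries below the MEC range, against 39.1%, 37.9% and 37.4% of all tested entries, so that line 233 was near the share of all entries, with median log2 ratios of -1.33, -0.10 and -1.34. Without line 233, 26 of the 54 were called lower and none higher, against 6.27% and 1.99%. In that fit *Epsti1* and the joined entry of *Gbp4*, *Gbp8* and *Gbp9* fell under the filter and were not tested.

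**Figure D5:**
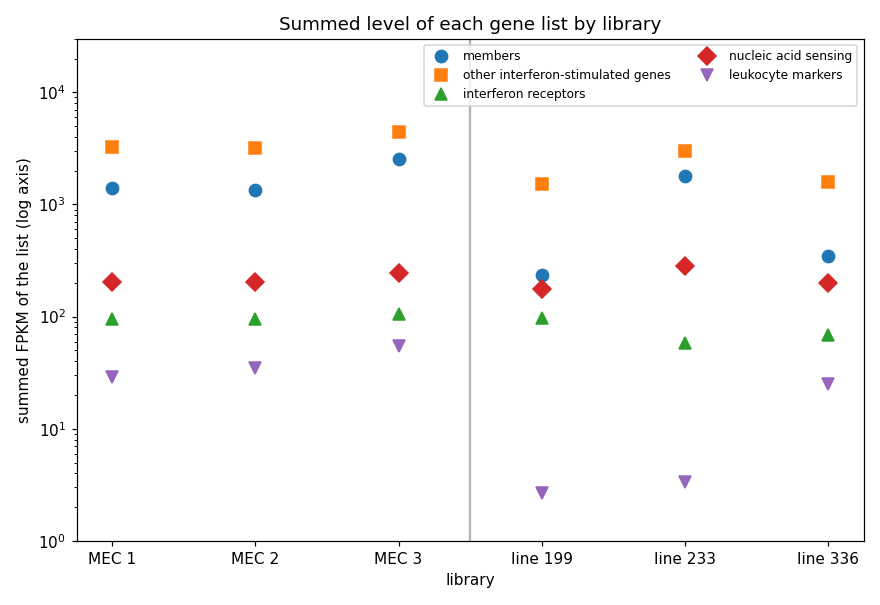
Summed FPKM of each gene list in each library, on a log axis. The 39 member entries sum to 1343 to 2535 in MEC and to 236, 1804 and 345 in lines 199, 233 and 336, the other interferon-stimulated genes are likewise highest in line 233 among the lines, and the leukocyte markers are low in lines 199 and 233.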

How the data were processed

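RNA from 3 MEC cultures and 3 MEKO tumor cell lines was sequenced from Illumina TruSeq libraries. Per the labels and methods, the authors aligned reads to GRCm38 with TopHat2 2.0.14 and Bowtie2 and deposited FPKM values per gene entry from Cufflinks 2.2.1; the strand setting is not given in the sources used here. FPKM carries no read counts, so the depth is unknown and a count test could not be used; relative depth, read from the steps of low values, was 0.92 to 1.30 times that of MEC 1. Per the study, the 3 MEC samples were independent preparations and the 3 lines independent, and p-values measure the spread between these libraries.

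Entries with a mean of at least 1 FPKM over the 6 libraries were tested as log2(FPKM + 1) with limma 3.58.1 (R 4.3.3; trended moderated test, Benjamini-Hochberg adjustment over all tested entries), and called at an adjusted p under 0.05 with a log2 change beyond 0.75; fold changes of low genes are understated on this scale. The exact permutation test was two-sided. The fit was tested on simulated data first. Positions relative to MEC compare 1 line with the lowest and highest of 3 MEC libraries. The members and lists were chosen with earlier results of these data known. Full statistics are given for called members and for up to 3 others per role with the largest change, and for the receptors, ligands and main signalling genes; other genes, the share in each line and the pairs of neighbours were named after their values were seen. Gene positions and shared 75-base words came from GENCODE M21, promoters from RefSeq. The alternatives were another pseudocount, other filters, other scalings, array weights, summed entries and leaving out each library. Results that need items withheld from this text are not reported here.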

Additional observations from a re-analysis of the deposited data

How the results depend on the processing

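The members called lower numbered 6 with the settings above. They numbered 2 with no filter on low values (against 3.82% of all tested entries) and 11 with array weights (against 11.1% of all tested entries), and ranged from 1 to 31 when 1 library was left out (31 without line 233). They numbered 5 with a pseudocount of 0.1 (6.41%), 4 with a mean of at least 5 FPKM (5.44%, 34 members tested), 4 after quantile normalization (6.28%), and 6 each with upper-quartile scaling (8.04%), without the mean-variance trend (7.31%) and with the entries of a symbol summed (7.29%). None was called higher in any of these. *Zbp1* was called in all 14 alternatives, *Gbp2* in 9, *Ifit3* and *Cmpk2* in 8. *Mx1* was called in 7 of the 10 alternatives that tested it, and *Gbp7* in 5 of 13. The direction turned for *Oasl1* (log2 fold change 0.0023 after quantile normalization, 0.43 with array weights, -0.48 to 0.25 over the fits without 1 library), *Trim25* (0.17 with array weights, -0.43 to 0.15 without 1 library) and *Bst2* (-2.11 to 0.021 without 1 library); the cause was not tested. No paired analysis was possible because the MEC and MEKO libraries share no replicate number. Read counts were not at hand, so no counting error could be given for low genes such as *Mx1*, *Mx2* and *Oas2*.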

Other observations

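Some genes of the pathway lists lay outside the MEC range in 1 or more lines, named here after their values were seen. Such a position was common. Of all tested entries, 39.1%, 37.9% and 37.4% lay below the MEC range in lines 199, 233 and 336, and 40.2%, 37.4% and 39.2% above it. *Jak2*, a kinase of the type II receptor, was at 16.4, 18.5 and 20.9 FPKM in MEC and at 11.02, 57.5 and 11.4 FPKM in lines 199, 233 and 336. *Socs1*, a feedback inhibitor of JAK kinases, was at 1.30, 0.946 and 1.42 FPKM in MEC and at 4.59, 3.66 and 1.06 FPKM in the lines. *Socs3*, another such inhibitor, was at 15.9, 15.2 and 9.54 FPKM in MEC and at 11.4, 2.38 and 3.64 FPKM in the lines. None of the 3 passed the test between MEKO and MEC (limma adjusted p = 0.949, 0.265 and 0.153). By chromosome, 8 of the 40 members were on chromosome 11, 6 on chromosome 16 and 4 each on chromosomes 3 and 5. Those on chromosome 11 were spread out, from *Irgm1* at base 48861968 to *Ifi35* at base 101448407. The counts were not set against the number of genes on each chromosome.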
